A study of Mus musculus with 8 samples.

Results

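The immunity-related GTPases (IRGs) of the mouse were described in Tregs and Tconvs exposed or not to chronic CD70. The 7 genes *Irgm1*, *Irgm2*, *Igtp*, *Iigp1*, *Ifi47*, *Tgtp1* and *Tgtp2* were taken by name from the table of 52636 rows, and each name was found. CD4+ Foxp3+ cells (Tregs) and CD4+ Foxp3- cells (Tconvs) were sorted from the spleen of mice aged 6 to 8 weeks, 200000 cells for each of 8 libraries. CD4+ cells were first enriched by depleting other cells with magnetic beads, with CD25+ cells depleted in addition for Tconvs, and then sorted by the GFP of the Foxp3 reporter. The control groups were CD27+/- mice of the same crosses. The CD70Tg groups were CD11c-Cd70tg;CD27+/- Foxp3 reporter mice, in which CD70, the CD27 ligand, is driven by the CD11c promoter, so that dendritic cells carry it continuously. All 4 groups therefore have 1 functional *Cd27* allele. Each group has 2 libraries, and since the labels do not say that these came from separate mice, the p-values measure only the spread between these libraries, which may be technical. The table names the control columns KO, the sample descriptions name them WT, and the methods give CD27+/-.

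IRGs are GTPases of cell-autonomous immunity whose genes are switched on by interferons, in particular by IFN-γ. Effector members of the GKS class (*Iigp1*, encoding Irga6, *Ifi47*, encoding Irgd, and *Tgtp1* and *Tgtp2*, encoding Irgb6 proteins) are known to load onto the vacuoles of parasites such as *Toxoplasma*. Regulatory members of the GMS class (*Irgm1*, *Irgm2* and *Igtp*, encoding Irgm1, Irgm2 and Irgm3) sit on the membranes of the cell, where they hold the effectors in their inactive state. Guanylate-binding proteins and the autophagy conjugation machinery act with them at the vacuole.

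In GRCm38, 6 of the 7 genes lie on chromosome 11 in clusters at chr11:48861968-49096974 (*Irgm1*, *Tgtp1*, *Tgtp2* and *Ifi47*, among 8 IRG genes) and chr11:58187739-58222782 (*Igtp* and *Irgm2*, among 3), while *Iigp1* lies elsewhere and is placed further on. RefSeq promoter windows of GRCm38.p6, from 250 bases before to 50 bases after the start, were matched for 6 of the 7 genes (not *Iigp1*). They were searched on both strands for the core of the interferon-stimulated response element (ISRE, which is GAAA, any 2 bases and again GAAA) and of the gamma-activated site (GAS, TTCNNNGAA). In *Irgm2*, *Igtp*, *Tgtp1* and *Tgtp2*, a GAS core began exactly 11 bases before an ISRE core on the strand of the gene, and the related gene *Gm12185* had the same arrangement. The GAS core started at position -75 from the annotated start in *Irgm2*, -45 in *Igtp*, -88 in *Tgtp1*, -81 in *Tgtp2* and -86 in *Gm12185*. The windows below are shown because they carry this arrangement, and capitals mark both cores.
Irgm2, chr11:58214887-58214936, + strand: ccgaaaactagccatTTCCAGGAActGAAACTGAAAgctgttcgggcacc
Igtp, chr11:58199496-58199545, + strand: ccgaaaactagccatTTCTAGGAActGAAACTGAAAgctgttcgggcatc
Tgtp1, chr11:48992300-48992349, - strand: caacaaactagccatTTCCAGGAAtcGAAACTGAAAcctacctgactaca
Tgtp2, chr11:49064259-49064308, - strand: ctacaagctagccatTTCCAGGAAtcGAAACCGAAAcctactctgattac
Gm12185, chr11:48927234-48927283, - strand: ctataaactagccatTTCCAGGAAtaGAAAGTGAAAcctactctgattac
The *Irgm1* window held 2 overlapping ISRE cores and no GAS core, and is shown for contrast.
Irgm1, chr11:48871427-48871456, - strand: tttcaaGAAATAGAAACCGAAActgattct

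Of 32851 promoter windows, 3.44% held the ISRE core, 8.3% the GAS core and 0.45% both in any arrangement. The GAS core 11 bases ahead of the ISRE core was found in 5 windows (0.015%), which were the 5 IRG promoters above. The spacing was noticed after the sequences had been read, and the 5 genes are copies of a common ancestor. The windows of *Irgm2* and *Igtp* were identical at 48 of 50 bases, those of *Tgtp1* and *Tgtp2* at 39, and those of *Irgm2* and *Tgtp1* at 36. The *Ifi47* window held neither core in these letters.

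Values are given per 20 M reads, as deposited, and the libraries were not equally deep. The reads on genes, worked out from what 1 read is worth in each library, ranged from 6.9 to 33.14 M in Tconvs and from 1.9 to 4.52 M in Tregs, and the fewest reads behind a value of the 7 genes were 354. The libraries of a group differed by 1 to 1.54 times in these genes, the most in *Iigp1* in control Tconvs. The sorted populations fitted their labels, with the summed value of 4 Treg markers (*Foxp3*, *Il2ra*, *Ctla4* and *Ikzf2*) between 54604 and 63193 in Tregs and between 2695 and 3399 in Tconvs.

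Of the regulators, *Irgm1*, which is also tied to autophagy and mitochondrial control, had values of 4564 and 3499 in control Tconvs, 7007 and 6803 in CD70Tg Tconvs, 3810 and 3433 in control Tregs, and 5611 and 5894 in CD70Tg Tregs. In both subsets the CD70Tg libraries lay above the control libraries without overlap. *Irgm2* had values of 3645 and 2687 in control Tconvs, 7886 and 7185 in CD70Tg Tconvs, 4945 and 4628 in control Tregs, and 7732 and 7672 in CD70Tg Tregs. Control Tregs thus stood above control Tconvs, while the CD70Tg libraries of the subsets overlapped. *Igtp* had values of 6912 and 5380 in control Tconvs, 17077 and 16245 in CD70Tg Tconvs, 8181 and 7391 in control Tregs, and 16728 and 16785 in CD70Tg Tregs, the same pattern as *Irgm2* at a higher level. The exons of *Igtp* and *Irgm2* share 162 bases, which are 8% and 4.4% of their exon length, so that a small part of their reads cannot be told apart.

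Of the effectors, *Iigp1* had values of 1579 and 1024 in control Tconvs, 4561 and 4731 in CD70Tg Tconvs, 3577 and 3210 in control Tregs, and 8955 and 8531 in CD70Tg Tregs. It lies at chr18:60376027-60392634, among 4 IRG genes, and none of the 4 groups overlapped another. *Ifi47* had values of 9048 and 8241 in control Tconvs, 13697 and 12869 in CD70Tg Tconvs, 6682 and 6353 in control Tregs, and 9341 and 8868 in CD70Tg Tregs. Here the Tregs were below the Tconvs in both genotypes, and CD70Tg Tregs overlapped control Tconvs.

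The *Tgtp* genes are near copies. *Tgtp1* had values of 3173 and 2547 in control Tconvs, 6627 and 6184 in CD70Tg Tconvs, 1718 and 1647 in control Tregs, and 4274 and 4318 in CD70Tg Tregs. *Tgtp2* had values of 2890 and 2681 in control Tconvs, 5754 and 5446 in CD70Tg Tconvs, 2281 and 2387 in control Tregs, and 4535 and 4796 in CD70Tg Tregs. Both were lowest in control Tregs and highest in CD70Tg Tconvs. Of all 50-base stretches in *Tgtp1* transcripts, 79.4% also occur in *Tgtp2* transcripts, and 85.8% the other way round. How reads that match both genes were counted is not given in the sources used here, and the values of either gene are uncertain for that reason. In the other 5 genes the share of stretches found in any other gene was at most 11.8%.

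**Figure D1:**
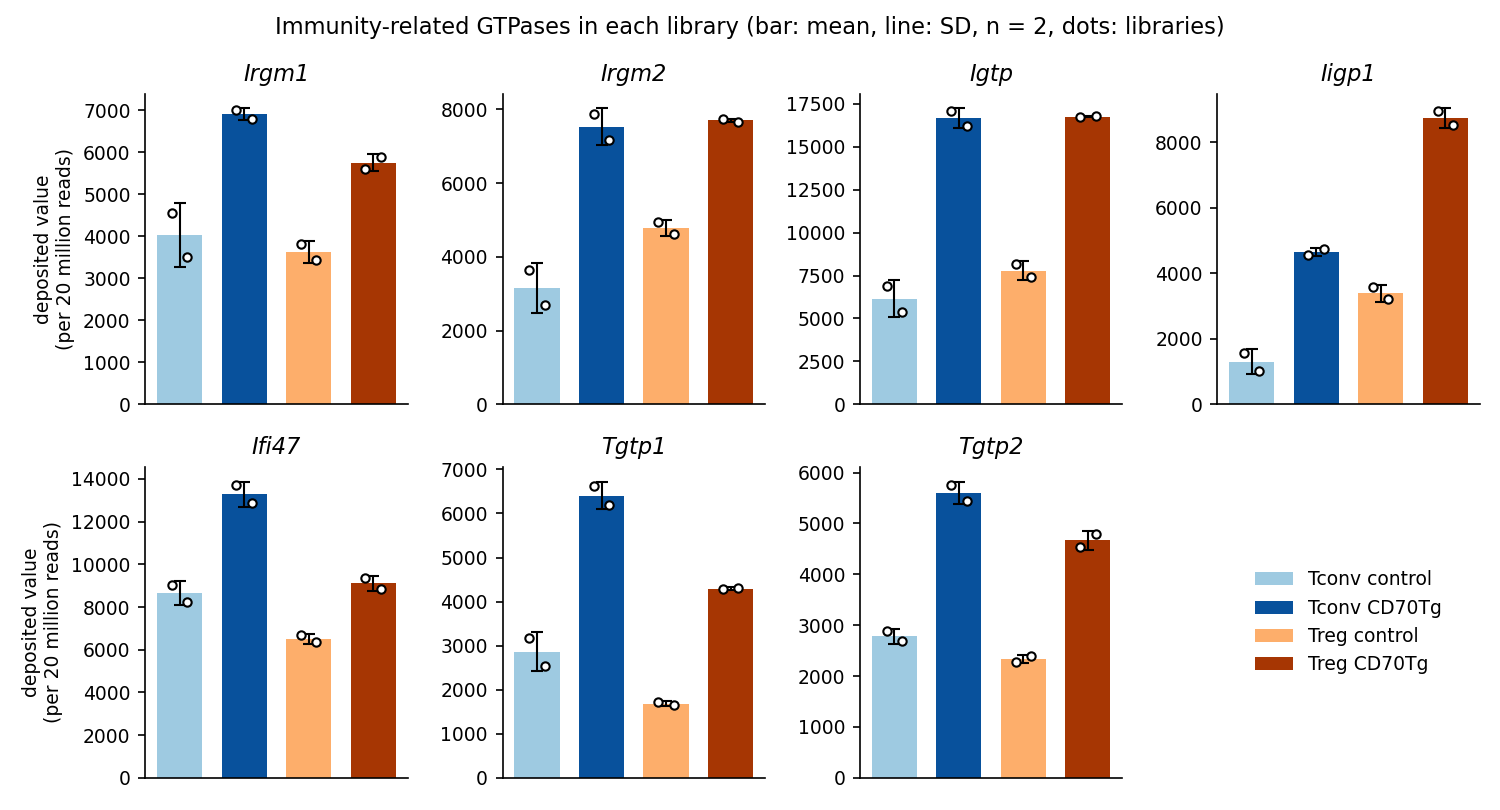
Value per 20 M reads (y axis, linear from 0) of the 7 IRG genes in the 4 groups, with bars for the mean, lines for the SD and dots for the 2 libraries. In each gene and subset both CD70Tg libraries stand above both control libraries, from 8955 and 8531 against 3577 and 3210 for *Iigp1* in Tregs to 9341 and 8868 against 6682 and 6353 for *Ifi47*.

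The first question was whether chronic CD70 changed these genes in each subset. All 7 genes rose in CD70Tg Tregs at an adjusted p-value under 0.05, against 3.94% of the 12816 genes tested, and all 7 rose in CD70Tg Tconvs, against 6.82%. The test was limma's, fitted to log2(value + 5) over all 8 libraries together, and log2 fold changes are on this scale. In both subsets *Ifi47* had the smallest estimate of the 7, and in Tconvs *Iigp1* had the largest. In Tregs *Iigp1* and *Tgtp1* led with 1.37 and 1.35, and their order turned without the second control Treg library (1.29 and 1.32) or the first CD70Tg Treg library (1.33 and 1.36). With a log2 fold change over 1 in addition, 3 of the 7 were called in Tregs, against 2.53% of all genes, and 5 in Tconvs, against 4.07%. With median-of-ratios factors, quantile normalization or limma-voom on the recovered reads, 4 of the 7 were called in each subset. *Tgtp2* stood at this threshold, with 1.0 in Tregs and 1.01 in Tconvs. Both CD70Tg libraries lay above both control libraries for 7 of 7 genes in each subset, as they did for 22.5% of all genes in Tregs and 23.7% in Tconvs. With 2 libraries a group, relabelling the samples cannot give a two-sided exact p-value below 0.33, and no such test was made.

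Among the regulators, the log2 fold change of *Igtp* was 1.11 ± 0.13 (SE) in Tregs (adjusted p of 5.9e-05, limma) and 1.45 ± 0.13 in Tconvs (adjusted p of 9.5e-07), or 2.15-fold and 2.73-fold. That of *Irgm2* was 0.69 ± 0.13 in Tregs (adjusted p of 0.0047) and 1.26 ± 0.13 in Tconvs (adjusted p of 6.5e-06). *Irgm1* rose by 0.67 ± 0.13 in Tregs (adjusted p of 0.0043), level with *Irgm2*, and by 0.79 ± 0.13 in Tconvs (adjusted p of 0.00055).

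Among the effectors, *Iigp1* rose 2.58-fold in Tregs (log2 fold change 1.37 ± 0.15 SE, adjusted p of 4.9e-05) and 3.64-fold in Tconvs (1.86 ± 0.15, adjusted p of 4.7e-07). *Tgtp1* rose by 1.35 ± 0.12 in Tregs (adjusted p of 7e-06) and 1.17 ± 0.12 in Tconvs (adjusted p of 5.8e-06), and was the only one of the 7 with the larger estimate in Tregs. *Tgtp2* rose by 1.0 ± 0.11 in Tregs (adjusted p of 4.3e-05) and 1.01 ± 0.11 in Tconvs (adjusted p of 9.8e-06). The level of *Ifi47* was high at the start and rose 1.4-fold in Tregs (0.48 ± 0.11, adjusted p of 0.014) and 1.54-fold in Tconvs (0.62 ± 0.11, adjusted p of 0.0015). Without the second control Treg library, *Irgm1* (adjusted p of 0.06), *Irgm2* (0.052) and *Ifi47* (0.13) no longer passed in Tregs, and 4 of 7 did. The call of *Ifi47* in Tregs was lost without any one of the 4 Treg libraries, with adjusted p-values of 0.1 and 0.13 without a control library and 0.13 and 0.067 without a CD70Tg library.

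**Figure D2:**
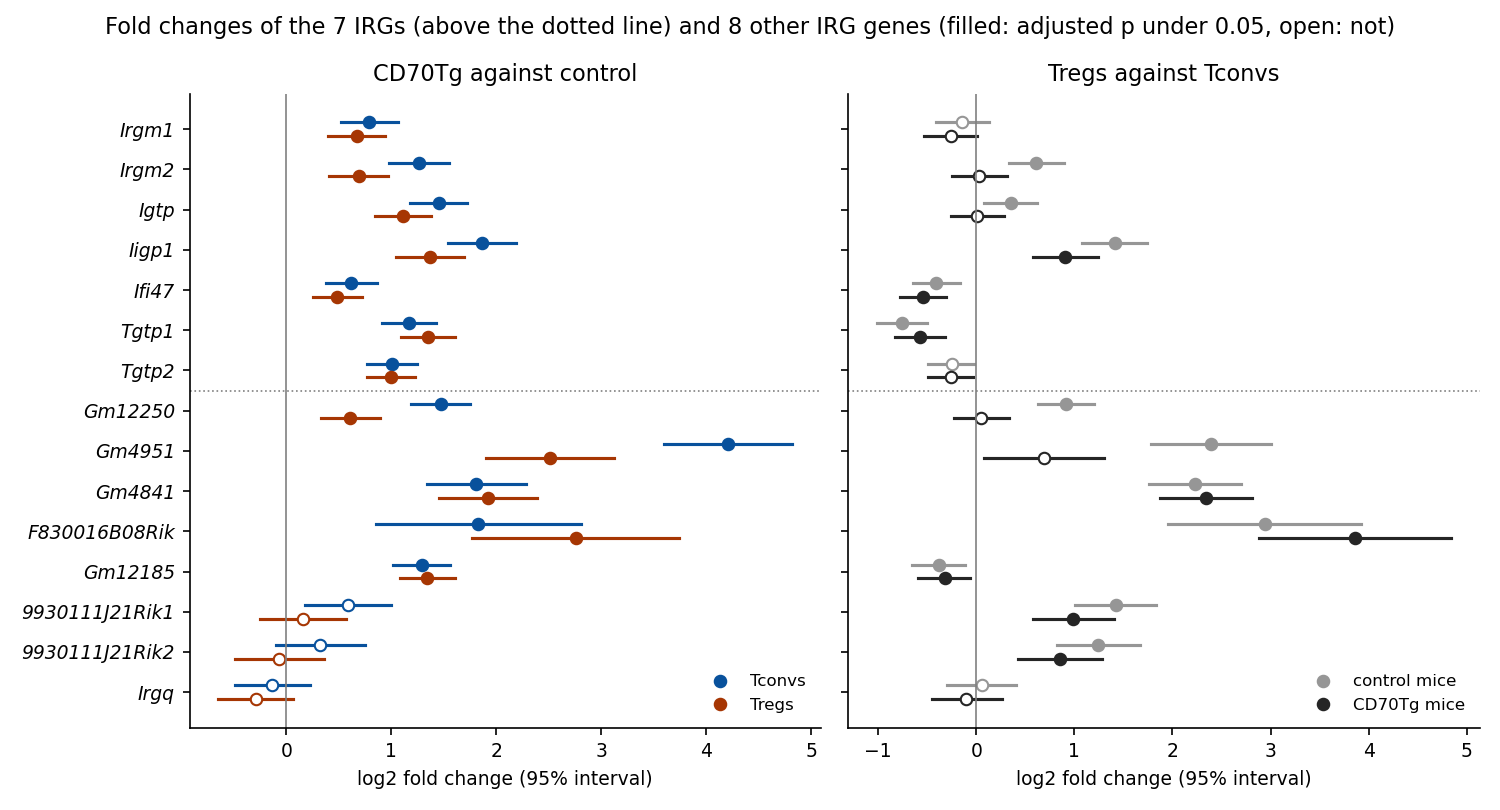
Log2 fold change with its 95% interval (x axis) of the 7 IRGs and of 8 other IRG genes, for CD70Tg against control on the left and Tregs against Tconvs on the right, with filled points for an adjusted p-value under 0.05. On the left all 7 IRGs lie right of 0 in both subsets. On the right *Iigp1* is higher in Tregs in both genotypes (1.41 and 0.91) and *Tgtp1* lower (-0.76 and -0.57), while *Irgm2* and *Igtp* pass as higher in control mice (0.61 and 0.35) and have 0.03 and 0.01 in CD70Tg mice, a change between the genotypes that did not pass for either gene (adjusted p of 0.21 and 0.54). The Tconv point of *F830016B08Rik* on the left and its control point on the right rest on control Tconv libraries at or under the value of 3 reads.

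The response in Tregs was then set against that in Tconvs. The difference of responses passed the limma test for 0 of the 7 genes, against 1.02% of all genes, and also for 0 of 7 with limma-voom on the recovered reads. At an unadjusted p-value under 0.05, 2 of the 7 differed, against 10.7% of all genes. These were *Irgm2*, whose response was smaller in Tregs by a log2 difference of -0.58 (95% interval -0.98 to -0.18, adjusted p of 0.21), and *Iigp1*, with -0.5 (-0.96 to -0.04, adjusted p of 0.42). Without the first control Tconv library both passed, with differences of -0.8 and -0.81 (adjusted p of 0.025 each). That library had the higher values of its group in all 7 genes. For the other genes the intervals covered 0 and were -0.73 to 0.04 in *Igtp*, -0.5 to 0.26 in *Irgm1*, -0.47 to 0.2 in *Ifi47*, -0.18 to 0.54 in *Tgtp1* and -0.34 to 0.32 in *Tgtp2*. A difference of these sizes between the subsets was therefore not resolved.

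Tregs and Tconvs of the same genotype were compared next. In control mice 3 of the 7 genes were higher in Tregs, against 27.5% of all genes, and 2 were lower, against 18.4%. *Iigp1* was 2.66-fold higher (log2 fold change 1.41 ± 0.15 SE, adjusted p of 2.2e-06), *Irgm2* 1.53-fold higher (0.61 ± 0.13, adjusted p of 0.0014) and *Igtp* 1.27-fold higher (0.35 ± 0.13, adjusted p of 0.035). *Tgtp1* was 1.69-fold lower (-0.76 ± 0.12, adjusted p of 0.0001) and *Ifi47* 1.33-fold lower (-0.41 ± 0.11, adjusted p of 0.0074). With a log2 fold change over 1 in addition only *Iigp1* was called, against 14.7% of all genes called higher. *Irgm1* (-0.14, adjusted p of 0.38) and *Tgtp2* (-0.25, adjusted p of 0.069) did not pass. Both directions occurred among the GKS genes, and the counts in either direction were not far from the shares of all genes.

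In CD70Tg mice 1 of the 7 genes was higher in Tregs, against 22.6% of all genes, and 2 were lower, against 20.1%. *Iigp1* was 1.88-fold higher (0.91 ± 0.15, adjusted p of 0.00022), *Tgtp1* 1.49-fold lower (-0.57 ± 0.12, adjusted p of 0.0013) and *Ifi47* 1.46-fold lower (-0.54 ± 0.11, adjusted p of 0.0011). For *Igtp* the difference was 0.01 with a 95% interval of -0.26 to 0.28, and for *Irgm2* 0.03 with an interval of -0.25 to 0.31. No gene of the 7 exceeded a log2 fold change of 1 here, against 12.3% of all genes called higher. *Irgm1* (-0.26, adjusted p of 0.11) and *Tgtp2* (-0.26, adjusted p of 0.063) did not pass.

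The balance of directions between the subsets depends on the scaling. In control mice the median over all genes was 0.069 with the values as deposited, -0.055 with median-of-ratios factors and -0.076 with quantile normalization, and of the genes that passed 59.9%, 47.2% and 45.9% were higher in Tregs. With quantile normalization *Tgtp2* also passed as lower and *Igtp* still passed, so that 3 of the 7 were higher and 3 lower. With median-of-ratios factors *Igtp* no longer passed (0.22, adjusted p of 0.18) and *Tgtp2* did (-0.38, adjusted p of 0.0099), so that 2 of the 7 were higher and 3 lower. The call of *Igtp* in control mice was also lost without the second control Tconv library (0.17, adjusted p of 0.37), without either control Treg library (0.21 and 0.071) and without either CD70Tg Treg library (0.054 each). That of *Ifi47* was lost without the first control Tconv library (0.063) or the second control Treg library (0.081). In CD70Tg mice 52.9% of the genes that passed were higher in Tregs with the values as deposited, 45.8% with median-of-ratios factors and 46.6% with quantile normalization. There *Irgm1* (-0.32, adjusted p of 0.046) and *Tgtp2* (-0.32, adjusted p of 0.025) passed as lower with median-of-ratios factors, so that 1 of the 7 was higher and 4 lower, and *Tgtp2* (-0.27, adjusted p of 0.031) with quantile normalization, so that 1 was higher and 3 lower. In control mice *Iigp1*, *Irgm2*, *Tgtp1* and *Ifi47* passed in the same direction with the deposited scaling, median-of-ratios factors and quantile normalization.

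Levels were compared between genes per kilobase of exon. *Ifi47* and *Igtp* led in each group, and *Igtp* ranked above *Ifi47* in all but control Tconvs. There *Ifi47* stood above *Igtp* within each library (ratios of 1.07 and 1.25), while across libraries they overlapped (3496 ± 231 and 3040 ± 536, SD, n = 2). In CD70Tg mice *Igtp* stood at 8240 ± 291 in Tconvs and 8287 ± 19.9 in Tregs. *Iigp1* was the lowest of the 7 in Tconvs, at 224 ± 67.4 in control and 798 ± 20.6 in CD70Tg libraries (SD, n = 2). In Tregs it ranked the sixth in control mice, at 583 ± 44.6, where it was below *Irgm1* within each library (ratios of 0.937 and 0.933) and overlapped it across libraries (623 ± 45.9), and the fifth in CD70Tg mice, at 1501 ± 51.5. In control Tregs the lowest was *Tgtp1* (525 ± 15.7) and in CD70Tg Tregs *Irgm1* (990 ± 34.4). *Irgm2*, *Tgtp1* and *Tgtp2* lay close together in Tconvs. Within each CD70Tg Tconv library their order was the same, at 9.65%, 9.34% and 8.85% of the summed level per kilobase of the 7 genes in the first library and 9.29%, 9.21% and 8.85% in the second, while the order differed between the control Tconv libraries.

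**Figure D3:**
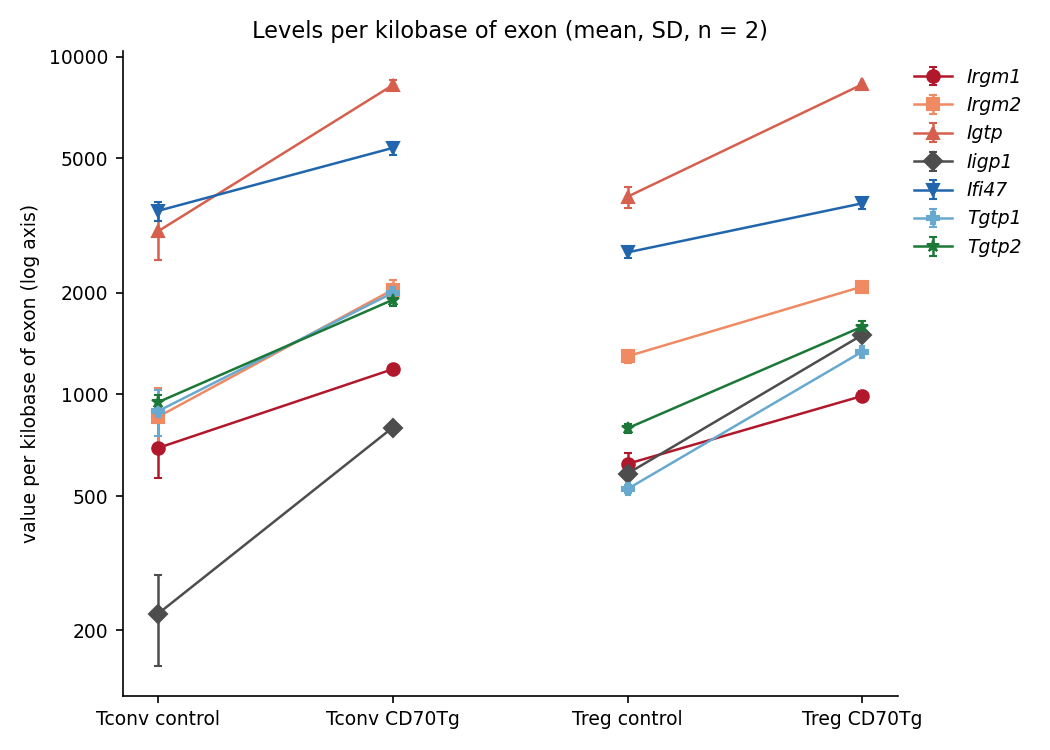
Value per kilobase of exon (y axis, log scale) of the 7 IRGs as the mean with its SD (n = 2) in each group, with lines joining control and CD70Tg groups of a subset. *Igtp* rises from below *Ifi47* to above it in Tconvs (3040 to 8240 against 3496 to 5371), and *Iigp1* starts at 224 in control Tconvs and 583 in control Tregs.

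The make-up of the family was then read within each library. The 7 genes together took 0.145% of all values in control and 0.305% in CD70Tg Tconvs, and 0.151% and 0.283% in Tregs (means of 2 libraries). Per kilobase, the GKS effectors stood to the GMS regulators as 1.14 and 1.31 in control and 0.878 and 0.879 in CD70Tg Tconvs, and as 0.766 and 0.808 in control and 0.723 and 0.705 in CD70Tg Tregs. With all 4 effectors the ratio was thus lower in CD70Tg than in control libraries in both subsets, but in Tregs this held only with *Ifi47* counted. For the other 3 effectors it was 0.432 and 0.472 in control and 0.408 and 0.412 in CD70Tg Tconvs, and 0.319 and 0.341 in control and 0.39 in each CD70Tg Treg library, which is higher in CD70Tg than in control Tregs. The ratio also depends on *Igtp*, the largest of the regulators. Of the summed level of the 7 genes, *Igtp* took 37.9% and 36.7% in control and 42.4% and 42.7% in CD70Tg Tregs. The shares of *Irgm1* and *Irgm2* were lower in CD70Tg than in control Tregs. The ratio without *Igtp* is not given here, and its fall is therefore not a trait shown for each class as a whole. With and without *Ifi47* the ratio was lower in Tregs than in Tconvs of the same genotype, without overlap. The ratio of *Ifi47* to *Igtp* went from 1.16 to 0.652 in Tconvs and from 0.685 to 0.444 in Tregs. Against *Irgm1*, *Iigp1* went from 0.319 to 0.672 in Tconvs and from 0.935 to 1.52 in Tregs. These ratios are within a library and do not depend on its scaling, and they were not tested.

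Other IRG genes were read from a list of 10, with members on chromosomes 7, 11 and 18, of which 8 were tested. In each subset 5 of the 8 rose, against 3.94% of all genes in Tregs and 6.82% in Tconvs, namely *Gm12250* (also named Irgb10 in RefSeq, though GENCODE annotates it as a processed pseudogene), *Gm4951*, *Gm4841*, *F830016B08Rik* and *Gm12185*. Of these *F830016B08Rik* reached the minimum value of 60 in 2 libraries only through the CD70Tg Tregs, the group in which it is highest, and without it the count was 4 of 7. The exons of *Gm12185* and *Tgtp1* share 223 bases, which are 4% and 7% of their exon length. Of the 50-base stretches in *Gm12185* transcripts, 19.5% also occur in other genes, so that a part of its reads cannot be told apart from theirs. *Gm5431* (at most 20) and *Irgc1* (at most 50) were below the minimum value. *Irgq*, a divergent relative on chromosome 7, had log2 fold changes of -0.29 in Tregs (adjusted p of 0.34) and -0.14 in Tconvs (adjusted p of 0.76).

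*Gm4951* had values of 45 and 21 in control Tconvs, 559 and 787 in CD70Tg Tconvs, 165 and 206 in control Tregs, and 1024 and 1126 in CD70Tg Tregs. Its log2 fold change was 4.21 ± 0.29 in Tconvs (adjusted p of 4.4e-08) and 2.51 ± 0.29 in Tregs (adjusted p of 5.7e-05), larger than that of any of the 7 genes, while the difference of the responses, -1.7, did not pass (adjusted p of 0.062). It passed in 2 of 18 alternatives, without the first control Tconv library (-2.17, adjusted p of 0.0036) and without the first CD70Tg Tconv library (adjusted p of 0.035). *F830016B08Rik* had values of 3 and 0 in control Tconvs, at or under what 3 reads give, and 18 and 17 in CD70Tg Tconvs, at least 2.78-fold higher against a floor of 6.3. Its call in Tconvs was lost in 5 of 18 alternatives, with adjusted p-values up to 0.16, among them those without the second control library (0.16) or without the first or the second CD70Tg library (0.063 and 0.1). In Tregs it went from 30 and 62 to 293 and 354 (log2 fold change 2.76 ± 0.46, adjusted p of 0.0015). *Gm12250* had values of 1048 and 863 in control Tconvs, 2507 and 2787 in CD70Tg Tconvs, 1937 and 1669 in control Tregs, and 2644 and 2844 in CD70Tg Tregs. It rose 2.77-fold in Tconvs (1.47 ± 0.13, adjusted p of 1.2e-06) and 1.52-fold in Tregs (0.61 ± 0.13, adjusted p of 0.0099), a call lost in 5 of 19 alternatives. The difference of these responses was -0.86 ± 0.19 (adjusted p of 0.033), and it was past the threshold in 10 of 18 alternatives, over which the adjusted p-value ranged from 0.012 to 0.33.

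The difference between Tregs and Tconvs was read by cluster. On chromosome 18, 4 of 4 IRG genes (*Gm4951*, *Gm4841*, *F830016B08Rik* and *Iigp1*) were higher in control Tregs than in control Tconvs, and 3 of 4 in CD70Tg mice, where *Gm4951* did not pass but did so in 6 of 19 alternatives. Without *F830016B08Rik*, which was tested only through its high values in CD70Tg Tregs, these counts were 3 of 3 and 2 of 3. In the cluster with *Igtp* and *Irgm2*, 3 of 3 were higher in control Tregs, while in CD70Tg mice the differences of *Igtp*, *Irgm2* and *Gm12250* were 0.01, 0.03 and 0.05 and did not pass. With median-of-ratios factors *Igtp* left this count, as given above. In the cluster with *Irgm1*, 3 of 7 were lower in Tregs in either genotype (*Ifi47*, *Tgtp1* and *Gm12185*) and 2 of 7 were higher, both of them genes of the *9930111J21Rik* pair. The difference of *Gm12185* was close to the threshold in CD70Tg mice (-0.32, adjusted p of 0.05), where its call was lost in 13 of 19 alternatives with adjusted p-values up to 0.21. In control mice (-0.38, adjusted p of 0.022) it was lost in 3 of 19, all of them without 1 library, with -0.26 and an adjusted p of 0.2 without the first control Tconv library, and 0.12 and 0.079 without the first and the second control Treg library. The clusters were not tested against the shares of all genes given above.

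The *9930111J21Rik* genes lie in the cluster with *Irgm1*, the second of them between *Tgtp1* and *Tgtp2*, and did not pass the test in either subset. Of the 50-base stretches in *9930111J21Rik1* transcripts, 80.4% also occur in *9930111J21Rik2* transcripts, and 56.1% the other way round, so that the values of either gene are uncertain as those of the *Tgtp* genes are. *9930111J21Rik1* had values of 412 and 674 in control Tconvs, 701 and 901 in CD70Tg Tconvs, 1320 and 1524 in control Tregs, and 1630 and 1539 in CD70Tg Tregs (log2 fold change 0.59, adjusted p of 0.076 in Tconvs, and 0.16, adjusted p of 0.7 in Tregs). In Tconvs it passed in 3 of 19 alternatives, among them those without the second control library (0.94, adjusted p of 0.0036) and without the first CD70Tg library (0.77, adjusted p of 0.037). *9930111J21Rik2* had log2 fold changes of 0.32 in Tconvs (adjusted p of 0.45) and -0.07 in Tregs (adjusted p of 0.89), and its libraries overlapped. Without the second control Tconv library it passed in Tconvs (0.76, adjusted p of 0.0064). In Tregs their 95% intervals were -0.25 to 0.57 and -0.49 to 0.36, while that of *Tgtp1* was 1.09 to 1.61. Of the neighbours that are not IRGs, *Psme2b*, a proteasome activator copy, did not pass (0.47, adjusted p of 0.057 in Tregs, and 0.45, adjusted p of 0.062 in Tconvs), but did so in 7 of 19 alternatives in Tregs and 2 of 19 in Tconvs, with adjusted p-values down to 0.013 and 0.017. *Olfr56* passed (0.7, adjusted p of 0.007, and 0.64, adjusted p of 0.0079), and its exons share 111 bases with those of *Ifi47*. Its call was lost in 4 of 19 alternatives in Tregs, among them those without the first control (adjusted p of 0.1) or the first CD70Tg Treg library (0.11), and in 1 of 19 in Tconvs. *Gm5970*, a processed pseudogene within the span of *Gm4951*, passed in Tregs (1.96, adjusted p of 0.022), a call lost in 6 of 17 alternatives, and in Tconvs (2.65, adjusted p of 0.0018), a call lost in 1 of 17, at values of at most 147 that were over 60 in the CD70Tg Tregs alone.

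Genes of the IFN-γ pathway were read from a list of 16, not all of which act upstream of the IRGs. In Tconvs 10 of the 16 rose and 1 fell (against 6.82% and 1.99% of all genes), and in Tregs 5 rose (against 3.94%), with median log2 fold changes of 0.88 and 0.31 against 0.01 and -0.05 over all genes. The difference of responses passed for 0 of the 16, against 1.02% of all genes, so that a difference between the subsets was not resolved. *Ifng* itself had values of 105 and 72 in control Tconvs, 718 and 2111 in CD70Tg Tconvs, 64 and 71 in control Tregs, and 168 and 300 in CD70Tg Tregs. It rose in Tconvs (3.75 ± 0.4 SE, adjusted p of 6.9e-06) and in Tregs (1.67 ± 0.4, adjusted p of 0.016), and the CD70Tg Tconv libraries were far apart. The call in Tregs was lost in 5 of 19 alternatives. Of the receptor chains, *Ifngr1* rose by 1.12 ± 0.12 in Tregs (adjusted p of 4.3e-05) and 1.04 ± 0.12 in Tconvs (adjusted p of 2.1e-05), and *Ifngr2* fell by 0.59 in Tconvs (adjusted p of 0.016) with -0.23 in Tregs (adjusted p of 0.39). The call of *Ifngr2* in Tconvs was lost in 4 of 19 alternatives, with adjusted p-values of 0.073 and 0.091 without the first and the second control Tconv library and 0.076 without the second CD70Tg Tconv library.

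Of the receptor kinases, *Jak2* rose in Tconvs (0.39, adjusted p of 0.038), with 0.08 in Tregs (adjusted p of 0.75), and *Jak1* had 0.06 in Tconvs (adjusted p of 0.88) and -0.12 in Tregs (adjusted p of 0.61). The transcription factor gene *Irf1* rose in both subsets, by 0.83 ± 0.15 in Tregs (adjusted p of 0.0026) and 0.96 ± 0.15 in Tconvs (adjusted p of 0.00038). *Irf8*, which with *Irf1* binds ISRE-like sites, rose by 1.53 ± 0.21 in Tregs (adjusted p of 0.00025) and 1.26 ± 0.21 in Tconvs (adjusted p of 0.00073). With no minimum value the calls of *Irf1* in Tregs (adjusted p of 0.066) and Tconvs (0.051) and of *Irf8* in Tconvs (0.072) were lost. *Socs3*, a feedback inhibitor of cytokine receptors, rose in Tconvs (1.12 ± 0.22, adjusted p of 0.0029), with 0.15 in Tregs (adjusted p of 0.76). Its call in Tconvs was lost in 2 of 19 alternatives, with no minimum value (adjusted p of 0.16) and without the second CD70Tg Tconv library (0.87, adjusted p of 0.076), and without the second control Tconv library the estimate was 0.66 (adjusted p of 0.036).

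Guanylate-binding proteins, the partner GTPases, rose in 11 of 11 members in Tconvs and 6 of 11 in Tregs, against 6.82% and 3.94% of all genes, with median log2 fold changes of 1.35 and 0.63 against 0.01 and -0.05. *Gbp2* went from 2897 and 2537 to 9266 and 12535 in Tconvs and from 4154 and 3753 to 8485 and 9956 in Tregs. *Gbp3* had log2 fold changes of 1.95 ± 0.15 in Tconvs and 0.63 ± 0.15 in Tregs, and their difference of -1.32 passed (adjusted p of 0.0044), a call lost with no minimum value (0.23). For the other 10 members the difference of responses did not pass. Of 18 genes known for their response to type I interferons, 3 rose in Tconvs (*Ifit3*, *Mx1* and *Oasl2*) and 2 in Tregs (*Oasl2* and *Oas1a*), also above the shares of all genes, with medians of 0.3 and 0.22. The lists were not tested against each other, and many of these genes respond to IFN-γ as well. The 3 tested genes of the type I receptors and their kinase (*Ifnar1*, *Ifnar2* and *Tyk2*) did not pass in either subset, by limma, with log2 fold changes between -0.19 and 0.47. Of 13 autophagy conjugation and targeting genes, 1 rose in Tconvs (*Gabarapl1*, 0.82, adjusted p of 0.04), close to the share of all genes, and those in Tregs had log2 fold changes between -0.17 and 0.27, with medians of 0.03 in Tconvs and 0.07 in Tregs. The calls of *Jak2* and *Gabarapl1* in Tconvs were each lost in 9 of 19 alternatives, those of *Oas1a* and *Gbp3* in Tregs in 7 and 6, that of *Mx1* in Tconvs in 6 that of *Oasl2* in Tregs in 5, and those of *Ifit3* and *Oasl2* in Tconvs in 3 each.

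**Figure D4:**
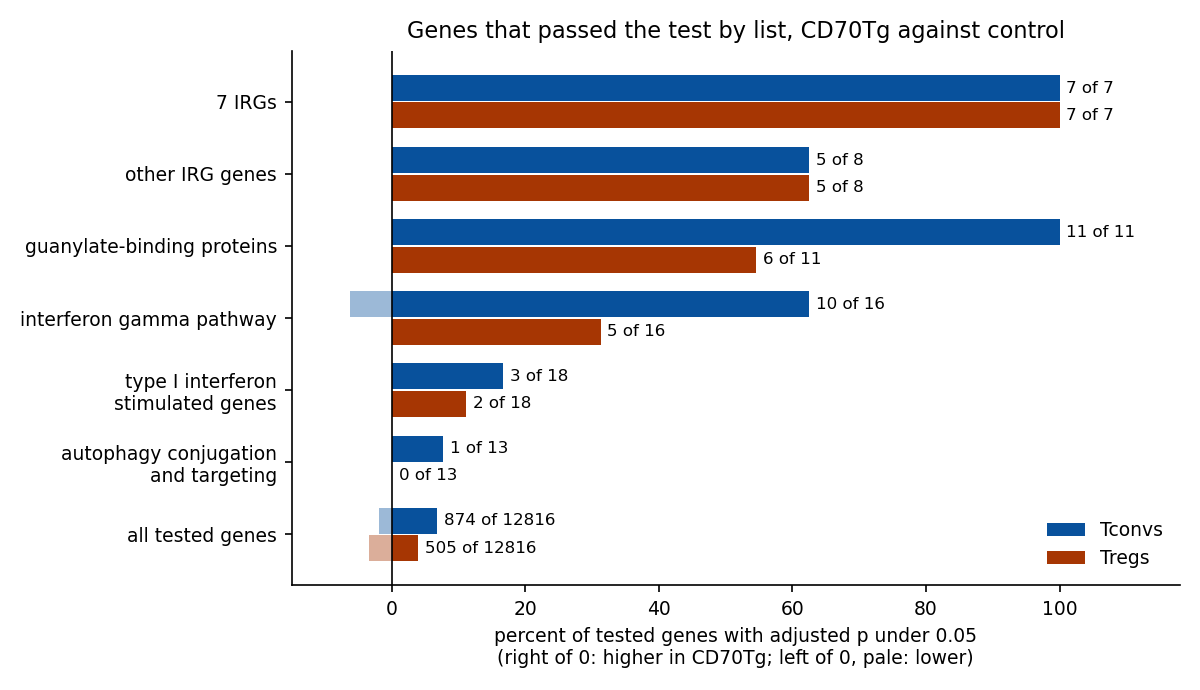
Percent of the tested genes of each list that passed at an adjusted p-value under 0.05 (x axis, higher to the right and lower to the left in pale) in CD70Tg against control Tconvs and Tregs. The 7 IRGs reach 7 of 7 in both subsets, the guanylate-binding proteins 11 of 11 and 6 of 11, and type I interferon-stimulated genes 3 of 18 and 2 of 18, against 874 and 505 of the 12816 genes tested.

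In bulk samples, fewer cells of a type and less RNA per cell cannot be told apart, and markers of other cells were therefore summed per library. The 5 dendritic cell markers summed to 66 to 110 in control and 195 to 342 in CD70Tg Tconvs, and to 99 to 156 and 372 to 399 in Tregs, and 1 of the 2 tested passed in each subset. The *Cd8a* and *Cd8b1* sum was 681 to 720 and 1563 to 1590 in Tconvs, and 317 to 417 and 631 to 660 in Tregs, and 2 of 2 passed in Tconvs and 1 of 2 in Tregs. The 6 macrophage and monocyte markers were lower in CD70Tg than in control Tconvs and overlapped in Tregs, with 1498 to 1541 and 928 to 1217 in Tconvs, and 2701 to 2802 and 2608 to 2834 in Tregs. Of the 5 tested, 1 passed in Tconvs and 2 in Tregs, where the sum hides opposite moves, with *Itgam* at 146 and 198 in control and 377 and 381 in CD70Tg libraries and *Csf1r* at 1500 and 1205 and then 930 and 762. In Tregs the 4 neutrophil markers summed to 10 to 32 in control and 203 to 243 in CD70Tg libraries, and the 5 erythroid markers to 566 to 1583 and 2406 to 4014, while in Tconvs they were at 13 to 25 and 6 to 23, and 870 to 1520 and 943 to 994. The 1 tested neutrophil marker and 4 of 5 erythroid markers passed in Tregs, and 0 of these in Tconvs by limma. The tested neutrophil marker (*S100a9*) and the dendritic cell marker that passed in Tregs (*Zbtb46*) reached the minimum value of 60 in the CD70Tg Tregs alone, so that their passing there is not independent of that minimum. The 5 B cell markers summed to 151 to 176 in control and 61 to 89 in CD70Tg Tconvs, and to 254 to 379 and 426 to 473 in Tregs, and 0 of the 2 tested passed in either subset. The 4 NK cell markers were lower in CD70Tg libraries, with 417 to 444 and 81 to 88 in Tconvs and 36 to 64 and 0 to 11 in Tregs, and the 1 tested passed in both subsets, with *Ncr1* at 0 in both control groups and in CD70Tg Tregs. The 7 IRGs together were at 28935 ± 4067 in control and 61036 ± 2225 in CD70Tg Tconvs, and at 30122 ± 1517 and 57020 ± 221 in Tregs (SD, n = 2). The part of these cells in the rise of the IRGs was not tested.

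The genes whose pattern was most like the IRGs were ranked by Pearson correlation, over the 8 libraries, of log2(value + 5) with the mean centred profile of the 7 genes. Among the first 10 were *Pkdcc*, *H2-T22*, *Casp1*, *Pdgfb*, *Irf1*, *Gm17334*, *Gm43791* and *H2-T23*, with r from 0.986 to 0.975. Of these, *Pkdcc*, *Pdgfb* and *Gm43791* were below the minimum value for testing in each control library and reached it in CD70Tg libraries alone. Their place in the ranking is therefore not independent of that minimum. The points share their libraries and their split into 4 groups, and 129 of 12809 genes had r over 0.9. Of the 10, 2 were also among the first 10 by Spearman correlation. *Gm17334* shares 14.9% of its exon length with *Irf1*. *Casp1*, the gene of the inflammasome protease, had values of 277 and 145 in control Tconvs, 1095 and 1729 in CD70Tg Tconvs, 199 and 250 in control Tregs, and 1098 and 1044 in CD70Tg Tregs. The 7 genes are themselves part of this profile, and their Pearson r with it ranged from 0.756 in *Ifi47* to 0.991 in *Igtp*. By Spearman correlation *Ifi47* and *Igtp* were level at 0.857, between *Iigp1* (0.69) and *Irgm1* (0.976).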

How the data were processed

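The authors removed adapters with Trimmomatic 0.36, mapped paired reads to mm10 with STAR 2.5.3 at its default settings, and counted reads per gene with HTSeq 0.9.1. The strand setting of the counting is not given in the sources used here. The deposited values, treated as a score, are such counts brought to a total of 20 M in each library, with fractions rounded up. The unit is therefore a normalized one, and a count test was not the main test. The table holds no column of other samples. Columns name the groups but not the replicate numbers, so libraries were numbered in table order.

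The 4131 rows with clone-derived names were left out, since their low values follow the step of another library. For the 97 names on more than one row, the row with the largest total was used. The 12816 genes that reached 60 in 2 or more libraries were tested with limma 3.58.1 in R 4.3.3 (lmFit and eBayes with a trend) on log2(value + 5), with 1 coefficient per group. Benjamini-Hochberg adjustment was made over all tested genes, separately for each contrast. A gene passed at an adjusted p-value under 0.05 and was called with an absolute log2 fold change over 1 in addition. All adjusted p-values are limma's. On simulated data with known changes the procedure was tested before use.

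Reads were recovered from the step of the low values in each library, and 3 reads were taken as the floor, which covers counting error only. The floors ranged from 1.8 to 31.3. Exon lengths, overlaps and positions were taken from GENCODE M21 (GRCm38), and promoter sequences from RefSeq (GRCm38.p6). The genes named were the 7 IRGs, each gene of the list of other IRG genes, and of each other list the 4 members with the largest fold change in either subset among those that passed, plus *Ifng*, *Ifngr1*, *Ifngr2*, *Jak1*, *Jak2* and *Irf1*. Some genes that these rules name are not reported here. *Psme2b*, *Olfr56* and *Gm5970* were chosen after their values were seen. The IRGs and the lists were chosen with earlier results of these data known. Alternatives were a pseudocount of 1 or 20, other minimum values, median-of-ratios factors, quantile normalization, limma-voom on recovered reads, same-name rows summed, the 2 groups alone, no fold change threshold, leaving out each library and, added after seeing the data, keeping the clone-named rows.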

Additional observations from a re-analysis of the deposited data

Results flagged for a closer look

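*Gm12250* was set apart because its response to CD70 differed between the subsets in a test of the difference itself. The log2 fold change in Tregs minus that in Tconvs was -0.86 ± 0.19 (SE, adjusted p = 0.033, limma), against a share of 1.02% of all genes with such a difference. Its values were 1048 and 863 in control Tconvs, 2507 and 2787 in CD70Tg Tconvs, 1937 and 1669 in control Tregs, and 2644 and 2844 in CD70Tg Tregs, so that the groups were separate in control mice and overlapped in CD70Tg mice. The difference kept its sign in 18 of 18 alternatives, with estimates from -1.0 to -0.72, and was no longer past the threshold in 8 of them.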

How the results depend on the processing

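No paired analysis was possible because the table's columns lack the replicate numbers of the sample titles. In Tconvs the 7 genes passed in the same direction in each of the 133 combinations of gene and alternative, and in Tregs in 124 of 133, with the same direction in the other 9. With no minimum value, 4 of 7 passed in Tregs (*Irgm1*, *Irgm2* and *Ifi47* did not), an alternative in which many more genes were tested. Leaving out 1 library, the number that passed ranged from 4 to 7 in Tregs, from 0 to 2 for the difference of responses and from 3 to 6 for Tregs against Tconvs in control mice, lowest there without the second control Treg library. With no threshold on the fold change the called genes went from 3 to 7 in Tregs, from 1 to 5 for Tregs against Tconvs in control mice and from 0 to 3 in CD70Tg mice. With median-of-ratios factors 5 instead of 3 passed for Tregs against Tconvs in CD70Tg mice, and the added genes were lower in Tregs. Of the 10 genes most alike, 2 were shared with the Spearman ranking and 3 to 9 when 1 library was left out. On the given strand only, 1.74% of promoters held the ISRE core. Signs turned only in values that did not pass. The difference of responses of *Tgtp2* was 0.06, 0.05 and 0.01 with median-of-ratios factors, quantile normalization and limma-voom, and -0.06 to 0.04 without 1 library, and that of *Irgm1* was -0.31 to 0.07 without 1 library. For Tregs against Tconvs in CD70Tg mice, median-of-ratios factors gave -0.02 in *Irgm2*, -0.05 in *Igtp* and -0.0046 in *Gm12250*, and leaving out 1 library gave -0.03 to 0.1, -0.03 to 0.04 and -0.02 to 0.13. In control mice that difference was -0.34 to 0.05 in *Irgm1*. The response without 1 library was -0.12 to 0.76 in *9930111J21Rik2* and -0.31 to 0.03 in *Irgq* in Tconvs, and -0.04 to 0.33 in *Socs3* and -0.2 to 0.63 in *Mx1* in Tregs. The causes were not tested. Depth limits the Treg libraries most, and a value under 31.3 in the shallowest of them rests on at most 3 reads.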
